A study of Danio rerio with 26 samples.

Results

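The forkhead (fox) genes encode transcription factors that share a winged-helix DNA-binding domain and are lettered into subfamilies. In the zebrafish embryo, members are known for the induction of the ear and of epidermal ionocytes (foxi1, foxi3a), for paraxial mesoderm and vessels (foxc1a, foxc1b), for endoderm and floor plate (foxa1, foxa2, foxa3), for Nodal signalling (foxh1) and for motile cilia (foxj1a, foxj1b). The genes described here were the rows of 4 RNA-Seq tables whose symbol begins with fox, a letter and a digit, without the foxo genes and foxd3. Of 30979 genes in the 4 tables, 48 met this rule. All 48 were present in each mutant table and 47 in the upf1 table, which had no row for foxb2. Another 6 genes of the pattern, 5 foxo genes and foxd3, were left out.

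The study asked what the exon junction complex (EJC), a group of proteins left on spliced RNA upstream of exon junctions, does in the embryo. Whole embryos homozygous for a frame-shifting deletion in magoh (allele oz37) or rbm8a (oz36), both genes of EJC core proteins, were compared with siblings of the same intercross, which were pooled from wild-type and heterozygous embryos, all in the AB strain. The magoh and rbm8a embryos were taken at 21 hours post fertilization (hpf), and rbm8a embryos also at 27 hpf, with 3 libraries of rRNA-depleted RNA for each label. Embryos injected with a splice-blocking morpholino (MO) against upf1, a helicase needed for nonsense-mediated decay (NMD), were compared at 12 hpf with uninjected wild-type embryos, with 2 polyA libraries each. Each library is a pool of embryos, and each mutant line carries a single recovered allele. The paper reports that maternally supplied Rbm8a and Magoh protein is present in young embryos. In homozygotes it was reduced by 21 hpf and kept dropping. Homozygotes of both lines show cell death in the head at these ages. Values are FPKM, fragment densities scaled to gene length and depth within each table, so levels are compared within a table only. Fold changes are on the scale of log2(FPKM + 1), which understates the change of low genes. A gene was called at a limma p, adjusted by the Benjamini-Hochberg method over all genes tested, under 0.05 where it also changed 1.5-fold or more. In whole embryos, fewer cells of a type and less RNA per cell cannot be told apart.

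Between 1561184 and 95877745 reads per library were recovered from the FPKM. The upf1 libraries held between 73345144 and 93157779 reads and resembled each other, with a mean correlation over forkhead genes of 0.984 or more between a library and the other 3. The mutant libraries did not. In the magoh table, the libraries labelled mutant 1 and sibling 2 stood apart: their mean correlation with the other libraries over the forkhead genes was 0.437 and 0.573, against 0.736 to 0.768 for the other 4. Their FPKM over all genes summed to 12658700 and 4321180, against 798941 to 917270 in the other 4, and 12 epidermal marker genes summed to 5372 and 1364, against 179 to 216. In the rbm8a table at 21 hpf, the library labelled mutant 2 stood apart (0.390 against 0.656 to 0.732). It was also the shallowest, with 1561184 reads, had the lowest FPKM sum (855807, against 2846790 or more), and gave the lowest sum of the epidermal markers, 270.7, against 1000.1 to 2181. At 27 hpf the mean correlations lay between 0.713 and 0.801 and no library was separate.

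The paper reports magoh and rbm8a transcripts as downregulated in the mutant of each gene. In the deposited FPKM of the mutant tables, the targeted genes did not separate all libraries by label. In the magoh table, magoh had an FPKM of 17.0, 3.67 and 3.58 in the libraries labelled mutant and 4.42, 13.6 and 6.51 in those labelled sibling. Without mutant 1 and sibling 2, which stood apart, this leaves 3.67 and 3.58 against 4.42 and 6.51. These do not overlap, but few libraries remain and they were chosen after their values were seen. In the rbm8a table at 21 hpf, rbm8a had 7.01, 7.28 and 8.39 in the libraries labelled mutant and 6.99, 13.2 and 13.3 in those labelled sibling. At 27 hpf the values were 3.69, 3.65 and 14.4 in the libraries labelled mutant and 2.82, 12.7 and 10.7 in those labelled sibling. In both rbm8a tables the first 3 library columns, labelled mutant 1, sibling 1 and mutant 2, were all below the last 3, labelled sibling 2, mutant 3 and sibling 3. In the magoh table the first 3 and the last 3 overlapped. Mutant results are given by label and also by column place, first 3 minus last 3 columns, and no genotype is given to a column. The division by column place was named when the genes were chosen, and in the magoh table the targeted gene gives no reason for it. In the upf1 table, upf1 had 30.3 and 31.3 in the morphants and 45.2 and 45.9 in the controls. A splice-blocking MO need not lower its target transcript, so this is a partial check.

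The clearest changes of forkhead genes were those in the upf1 morphants at 12 hpf. Here foxi1, which is required for the otic placode and acts upstream of ionocytes in the zebrafish, was higher, and foxd1 and foxd2 were lower. As the controls were not injected, effects of injection or of the MO itself cannot be told apart from those of upf1 loss. Of 47 forkhead genes, 33 passed the filter (FPKM of 0.5 or more in 2 libraries) and 3 of them were called, 1 higher and 2 lower, beside 2.3% of all 17057 genes tested. Without the fold threshold, 7 forkhead genes rose and 9 fell at an adjusted p under 0.05 by limma, which is 48.5% of those tested, beside 23.9% of all genes (1907 higher, or 11.2%, and 2175 lower, or 12.8%). Of the 33 genes, 15 had a log2 fold change above 0, beside 49.4% of all genes, and their median was -0.07, beside 0.00 over all genes. Both morphants lay above both controls in 12 of the 33 genes (36.4%) and below both in 16 (48.5%), beside 32.4% and 33.9% of all genes.

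**Figure D1:**
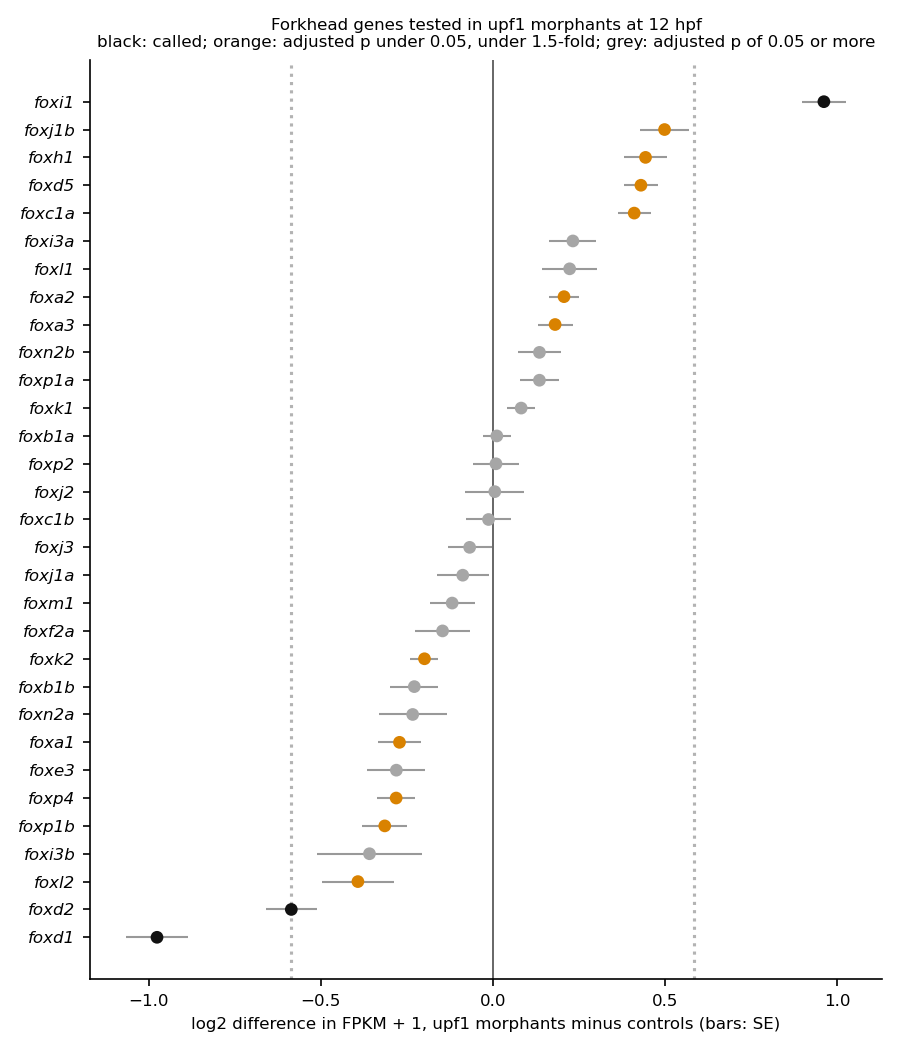
Log2 fold change (x axis, morphants minus controls, on the log2(FPKM + 1) scale) of 31 of the 33 forkhead genes tested in upf1 morphants (y axis), with the standard error as bars and dotted lines at 1.5-fold. The 3 called genes are black: foxi1 stands alone at 0.96, and foxd1 lies at -0.98 and foxd2 at -0.59. Orange points had an adjusted p under 0.05 but changed by less than 1.5-fold.

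foxi1 had an FPKM of 18.6 and 19.9 in the upf1 morphants and 8.86 and 9.93 in the controls, from between 1059 and 3046 reads per library. Both morphants were above both controls, as in 32.4% of all genes tested, and the mean was 2.05-fold higher. The log2 fold change was 0.96 (SE 0.06), with an adjusted p of 0.00104 by limma, the smallest among the forkhead genes. The related foxi3a and foxi3b, which specify ionocytes in the epidermis, did not pass. foxi3a had 5.54 and 5.29 in morphants and 4.21 and 4.71 in controls, and foxi3b had 2.94 and 2.07 in morphants and 3.99 and 2.98 in controls. The adjusted p of foxi3a was 0.0549 and that of foxi3b 0.14 by limma, and their log2 fold changes, 0.23 and -0.36, had opposite signs. foxi2 was below the filter, at 0.175 or less in every library.

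Genes linked to the tissues in which foxi1 works moved in both directions, with more of them below 0 than above. Of 17 genes of the otic placode, 12 were tested and 0 were called higher, and 3 of 12 had a log2 fold change above 0, beside 49.4% of all genes. pax2b, a transcription factor of the otic placode and the midbrain boundary, was the called member and fell by 0.69 on the log2 scale (SE 0.08, limma adjusted p = 0.00419), from a mean FPKM of 1.34 to 0.452. Its morphant mean lay under the filter level of 0.5 FPKM. It therefore passed at least in part through the controls, which favours a fall. At an adjusted p under 0.05 by limma, 2 of the 12 otic genes rose and 4 fell, beside 11.2% and 12.8% of all genes. Of 18 ionocyte genes, 10 were tested and 0 were called, and 2 of the 10 had a log2 fold change above 0, beside 49.4% of all genes. At a limma adjusted p under 0.05, 1 of the 10 was higher and 1 lower, beside 11.2% and 12.8% of all genes. The Notch ligand jag2b was lower (-0.26, limma adjusted p = 0.00833) and tp63, a regulator of basal epidermis, was higher (0.15, limma adjusted p = 0.0357). The 12 epidermal markers summed to 8248 and 7626 in morphants and 8319 and 8157 in controls, and 0 of them were called. At a limma adjusted p under 0.05, 3 of these 12 rose and 4 fell, beside 11.2% and 12.8% of all genes.

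**Figure D2:**
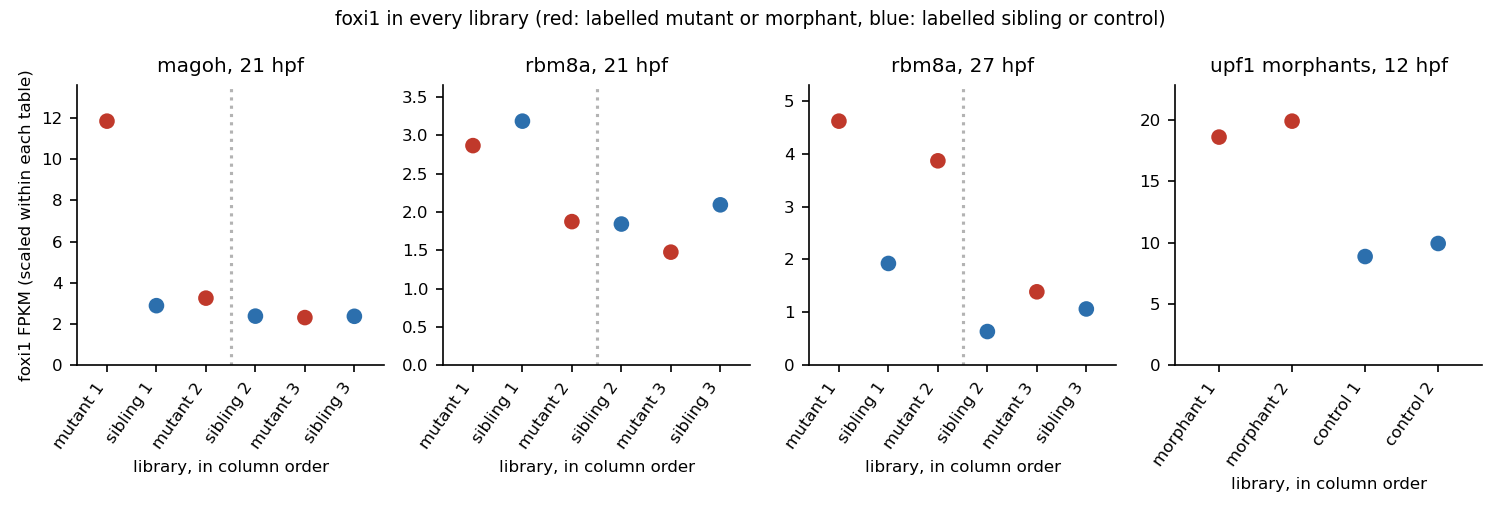
FPKM of foxi1 (y axis, scaled within each table, from 0) in every library in column order (x axis), red for libraries labelled mutant or morphant and blue for those labelled sibling or control, with a dotted line between the first 3 and the last 3 columns of the mutant tables. Both morphants, at 18.6 and 19.9, lie above both controls, and in the magoh table and in the rbm8a table at 27 hpf the first 3 columns lie above the last 3. The same holds for 32.4%, 1.87% and 3.19% of all genes tested in these tables, in that order.

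The foxd genes moved in opposite directions in the morphants. foxd1, a factor of the forebrain and of the temporal retina, had an FPKM of 1.46 and 1.35 in morphants and 4.08 and 3.4 in controls. Its fall was the steepest of the tested forkhead genes, with a log2 fold change of -0.98 (SE 0.09, limma adjusted p = 0.0023). foxd2 had 3.43 and 3.72 in morphants and 6.20 and 5.53 in controls, and fell by 0.59 on the log2 scale (SE 0.07, limma adjusted p = 0.00508). Its change lay close to the fold threshold, and without the library labelled morphant 1 (-0.54) or control 1 (-0.51), or after quantile normalization (-0.58), it fell short of it. foxd5, which in frogs acts in the early neural plate, went the other way. It had 25.5 and 26.6 in morphants and 18.4 and 19.8 in controls, a log2 fold change of 0.43 (SE 0.05, limma adjusted p = 0.00378) under the fold threshold.

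**Figure D3:**
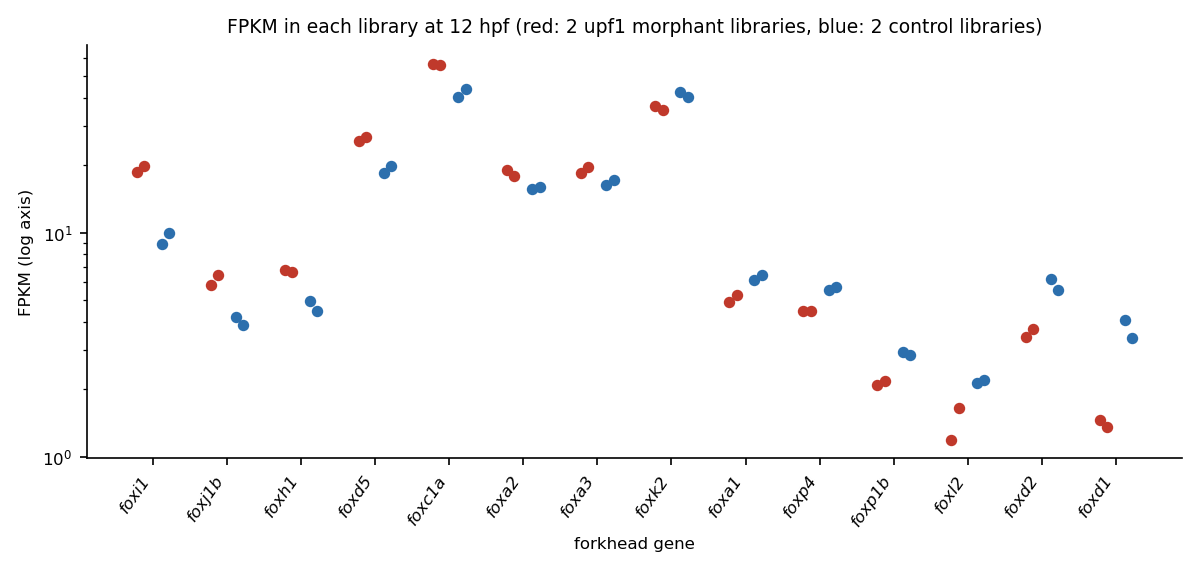
FPKM (y axis, log scale) of 14 of the 16 forkhead genes with an adjusted p under 0.05 (x axis, ordered by log2 fold change from foxi1 to foxd1) in the 2 upf1 morphant libraries (red) and the 2 control libraries (blue). The 4 libraries of each gene separate by treatment, from foxc1a at 40.2 to 56.4 down to foxl2 at 1.19 to 2.199. The genes were picked by their adjusted p in this same comparison, so their separation is no further evidence. Morphants and controls did not overlap in 66.3% of all 17057 genes tested.

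Forkhead genes of mesoderm and endoderm rose or did not pass, apart from foxa1, which fell. foxc1a was the most abundant forkhead gene of the upf1 table. Its FPKM was 56.4 and 55.7 in morphants and 40.2 and 43.7 in controls, with no overlap, as in 66.3% of all genes tested. The log2 fold change was 0.41 (SE 0.05, limma adjusted p = 0.00409). Its paralog foxc1b had 8.70 and 9.59 in morphants and 9.60 and 8.85 in controls, which overlap (-0.01, SE 0.07). foxh1, the partner of Smad proteins in the response to Nodal, had 6.83 and 6.68 in morphants and 4.93 and 4.48 in controls (0.44, SE 0.06, limma adjusted p = 0.00681). The endodermal pioneer factors foxa2 (0.21) and foxa3 (0.18) rose and foxa1 fell by 0.27 on the log2 scale, with a limma adjusted p of 0.023, 0.0493 and 0.026 in that order. foxf2a, a factor of pharyngeal mesenchyme, was at -0.15 (SE 0.08, limma adjusted p = 0.225), and foxl1, a mesenchymal gene, at 0.22 (limma adjusted p = 0.0947).

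Other genes of these tissues were counted in the same fit, in which 49.4% of all genes were above 0, 11.2% rose and 12.8% fell at a limma adjusted p under 0.05, and 2.3% were called. Of 28 genes of Nodal signalling and its targets, 19 were tested, 13 were above 0, and 7 rose and 3 fell at a limma adjusted p under 0.05. The 1 called was sox32, which directs endoderm formation downstream of Nodal. Its mean FPKM was 2.53 in morphants and 0.783 in controls, and it rose by a log2 fold change of 0.99 (SE 0.09, limma adjusted p = 0.00226). Of 22 endoderm and floor plate genes, 20 were tested and 12 were above 0. sox17, a marker of early endoderm (0.77, SE 0.09, limma adjusted p = 0.00367), and sox32, which is in both lists, were called higher, and the notochord and floor plate collagen col2a1a was called lower (-0.85, SE 0.06, limma adjusted p = 0.00109). Of 24 paraxial mesoderm genes, 20 were tested, 14 were above 0 and 0 were called, with 6 higher and 2 lower at a limma adjusted p under 0.05. msgn1, which marks presomitic mesoderm, was higher (0.33, limma adjusted p = 0.00414), and uncx4.1, expressed in formed somites, was lower (-0.49, limma adjusted p = 0.00561). Muscle markers were lower: 10 of them summed to 16.6 and 18.7 FPKM in morphants and 28.3 and 28.5 in controls, and smyhc1, actc1b and tnnc2 were the 3 called of 6 tested, all lower. Neuronal markers summed to 28.2 and 28.0 in morphants and 36.2 and 33.6 in controls, with 0 called and 2 lower at a limma adjusted p under 0.05 of 3 tested. Their part in the changes of forkhead genes was not tested.

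Of 20 genes of the telencephalon and optic field, 13 were tested, 1 was above 0 and 5 fell, beside 49.4% and 12.8% of all genes, with a median log2 fold change of -0.19 beside 0.00 over all genes. The called members were six3a (-0.64, SE 0.07, limma adjusted p = 0.00353) and lhx9 (-0.93, SE 0.11, limma adjusted p = 0.00462), both transcription factors of the anterior neural plate. foxb1a, a gene of the neural tube and diencephalon, overlapped (14.5 and 14.9 in morphants, 14.7 and 14.4 in controls). Its paralog foxb1b was at -0.23 and the lens factor foxe3 at -0.28, with a limma adjusted p of 0.0634 and 0.059. foxl2, known from the ovary, fell by 0.39 on the log2 scale (SE 0.10, limma adjusted p = 0.0413).

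Both master regulators of motile cilia were measured, and 1 of them moved. foxj1b had an FPKM of 5.82 and 6.48 in morphants and 4.22 and 3.89 in controls (0.50, SE 0.07, limma adjusted p = 0.00734). foxj1a had 2.24 and 2.36 in morphants and 2.65 and 2.35 in controls, which overlap (-0.09, SE 0.08, limma adjusted p = 0.434). Of 46 genes of motile cilia, 23 were tested and 6 were above 0, beside 49.4% of all genes, and 1 rose and 6 fell at a limma adjusted p under 0.05, beside 11.2% and 12.8%. The called member was dnai1.2, a dynein intermediate chain, which was lower (0.161 against 0.90 in mean FPKM, log2 fold change -0.71, SE 0.09, limma adjusted p = 0.00481). With a morphant mean this far under the filter level of 0.5 FPKM, dnai1.2 passed the filter through the controls alone. Its direction was therefore set by the filter. foxj2 (0.01) and foxj3 (-0.07) did not pass.

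The tested foxk, foxp, foxm and foxn genes stayed under the fold threshold. foxk2, the second most abundant forkhead gene of the upf1 table, had an FPKM of 36.6 and 35.3 in morphants and 42.3 and 40.5 in controls, and fell by 0.20 on the log2 scale (SE 0.04, limma adjusted p = 0.0195). foxk1 was at 0.08 (SE 0.04, limma adjusted p = 0.188). Among the foxp genes, which act in neurons of several classes, foxp4 and foxp1b fell by 0.28 and 0.31 on the log2 scale (limma adjusted p = 0.0174 and 0.0208), while foxp1a (0.14) and foxp2 (0.01) did not pass. foxm1, which drives genes of mitosis, had 2.18 and 2.17 in morphants and 2.41 and 2.49 in controls (-0.12, SE 0.07, limma adjusted p = 0.236). Of 34 cell cycle genes of the kind foxm1 controls in mammals, 30 were tested and 0 were called, with 4 higher and 6 lower at a limma adjusted p under 0.05, beside 11.2% and 12.8% of all genes. Those with the smallest p were the topoisomerase gene top2a (-0.43, limma adjusted p = 0.00154) and the mitotic cyclin gene ccnb1 (0.30, limma adjusted p = 0.00632). The remaining tested genes, foxn2a (-0.23) and foxn2b (0.14), did not pass.

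The 14 forkhead genes that did not reach the filter at 12 hpf included foxe1, foxf1, foxf2b, foxi2, foxn1, foxn3, foxn4, foxp3a, foxp3b, foxq1a, foxq1b and foxq2. All had a mean FPKM under 0.5, and foxe1, foxq1a and foxq2 were at 0 in at least 1 library. foxq2 was listed at 0 in both controls and at 0.0225 and 0.0335 in the morphants.

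Of 7 paralog pairs with both members tested in the morphants, 6 had log2 fold changes of opposite sign. These were foxi3a and foxi3b, foxj1a and foxj1b, foxc1a and foxc1b, foxb1a and foxb1b, foxn2a and foxn2b, and foxp1a and foxp1b. In none of these pairs did both members reach a limma adjusted p under 0.05, and foxc1b (-0.01) and foxb1a (0.01) lay near 0. The signs therefore do not show whether paralogs moved apart. In the RefSeq gene order (GRCz12tu, used for order only), foxc1a, foxf2a and foxq1a stand together, as do foxc1b, foxf2b and foxq1b, with at most 2 other protein-coding genes between them. In the first group foxc1a rose (0.41), foxf2a was at -0.15 and did not pass, and foxq1a was below the filter. In the second group, foxf2b and foxq1b were below the filter, so neighbours could be compared in few cases. foxd2 and foxe3 are adjacent, and both had log2 fold changes below 0 (-0.59 and -0.28), of which foxd2 alone was called. Reads with several mapping places were kept in the mapping, so a share of reads may have been exchanged between close paralogs.

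In the mutant tables no forkhead gene was called, by label or by column place. Over all genes, limma also called 0 in each of the 6 comparisons (0%). With 3 libraries on each side, this fit can miss changes. The paper, by DESeq2 on counts with RUVs factors, reports altered genes in both mutants. The 0 calls are no evidence that genes were unchanged. The forkhead genes are therefore described by their values and by unadjusted p, beside the same over all genes. Many forkhead genes were highest or lowest in the libraries that stand apart. These libraries were named partly by their correlations over the same genes, so this is in part a restatement. Over all genes their mean correlations were also the lowest of their tables, at 0.757 and 0.774 (magoh) and 0.739 (rbm8a, 21 hpf). In the magoh table, of 48 forkhead genes, 25 were lower in both mutant 1 and sibling 2 than in all other libraries, and 6 were higher, beside 29.9% and 30.6% of all genes with a mean FPKM of 0.5 or more. In the rbm8a table at 21 hpf the library labelled mutant 2 held the highest value of 29 of 48 forkhead genes and the lowest of 8, beside 34.5% and 40.7% of all genes at that mean level. foxl2, for example, had 1.92 and 1.89 in the magoh libraries labelled mutant 1 and sibling 2 and between 21.2 and 37.0 in the other 4, and 19.2 in mutant 2 of the rbm8a table at 21 hpf against 0.413 to 2.75 in its other libraries. foxq1b had 2.35 and 2.2 in those magoh libraries and 13.8 to 23.9 in the other 4, and 18.4 in mutant 2 of the rbm8a table against 0.727 to 1.64.

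**Figure D4:**
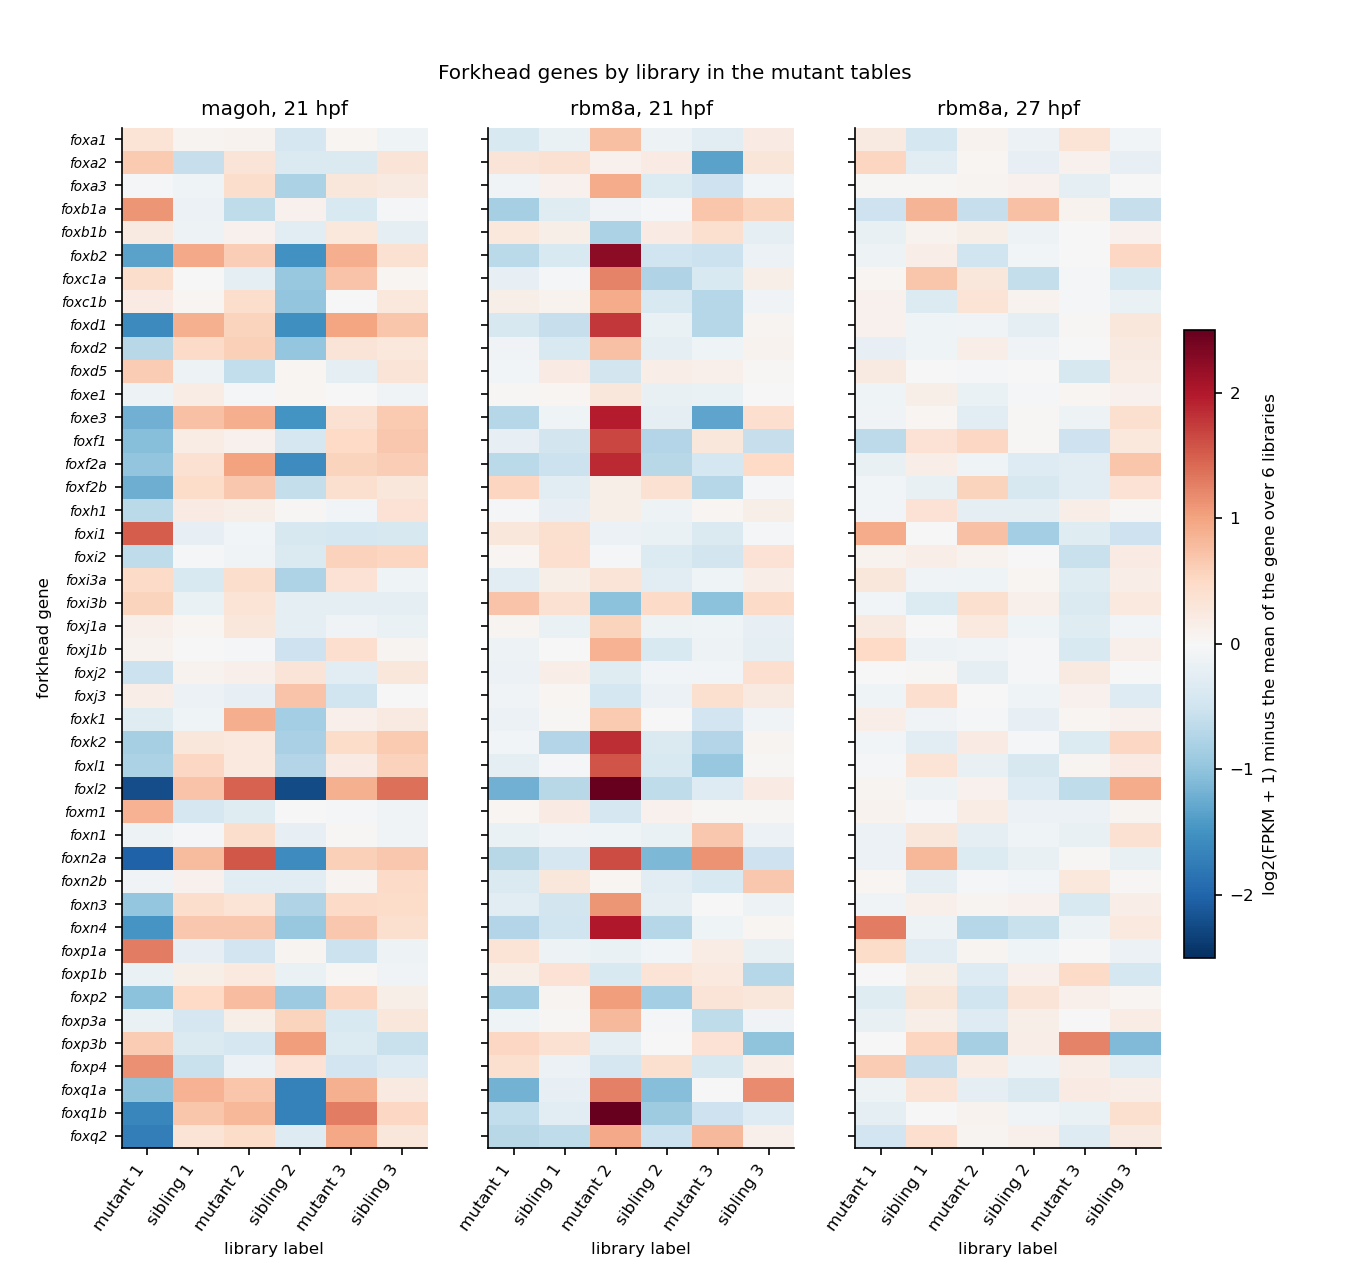
Log2(FPKM + 1) of each of 44 of the 48 forkhead genes (rows) in the 6 libraries of each mutant table (columns), minus the mean of that gene over the 6 libraries, as colour (red above, blue below the mean, with the end colours also used past 2.5). The columns mutant 1 and sibling 2 of the magoh table are blue for many genes, such as foxl2 and foxq1b, and mutant 2 of the rbm8a table at 21 hpf is red for many genes, including both of these.

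In the magoh table at 21 hpf, 2 of the 3 most abundant forkhead genes, foxn2a and foxq1a, were lowest in mutant 1 and sibling 2, and foxc1a was lowest in sibling 2 alone. foxn2a, with the highest mean FPKM, had 5.27, 73.6 and 37.8 in the libraries labelled mutant and 43.1, 7.61 and 39.8 in those labelled sibling. foxq1a had 10.5, 36.9 and 42.4 in the libraries labelled mutant and 41.5, 6.27 and 26.3 in those labelled sibling. foxc1a had 31.7, 19.7 and 38.3 in the libraries labelled mutant and 22.9, 11.5 and 23.8 in those labelled sibling. The labelled groups overlap in each of the 3 genes.

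By label, 47 of the 48 forkhead genes were tested in the magoh table (all but foxm1), and 31 had a log2 fold change above 0. Their median was 0.23, beside 0.05 over all genes, and 1 of them, foxi3a, had an unadjusted p under 0.05, which is 2.13% of those tested beside 4.4% of all 30281 genes (1332 genes). foxi3a had an FPKM of 5.98, 5.78 and 5.48 in the libraries labelled mutant and 2.84, 1.92 and 3.63 in those labelled sibling. These do not overlap, and the log2 fold change was 0.87 (SE 0.24) with a limma adjusted p of 0.847. foxb1b was the other forkhead gene without overlap (1.79, 1.56 and 1.87 against 1.16, 0.982 and 1.05), so that 2 of 47 did not overlap, beside 3.97% of all genes. foxa3 and foxk1 came next by p. foxa3 had 5.59, 8.23 and 7.39 in the libraries labelled mutant and 5.38, 2.97 and 7.0 in those labelled sibling (0.49, SE 0.24, limma adjusted p = 0.847, and 0.28 without sibling 2). foxk1 had 4.83, 12.5 and 6.81 against 5.70, 3.02 and 7.36 (0.54, SE 0.27, limma adjusted p = 0.847, and 0.32 without mutant 2). Of the markers of other tissues, 11 of 12 epidermal genes (median log2 fold change 0.38) and 8 of 11 muscle genes (0.17) were above 0 by label, as were all 12 (0.32) and 10 of 11 (0.16) by column place. Of neuronal markers 5 of 8 were above 0 by label (0.12) and by column place (0.10). Of erythroid markers 3 of 8 were above 0 by label (-0.03) and by column place (-0.16). The part of all these markers in the values of forkhead genes was not tested.

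By column place, foxi1 was the 1 forkhead gene of the magoh table with an unadjusted p under 0.05, beside 5.17% of all genes (1567 genes). Its FPKM was 11.8, 2.89 and 3.26 in the first 3 columns and 2.39, 2.32 and 2.38 in the last 3, with no overlap (0.79, SE 0.30, limma adjusted p = 0.842). The value rests on the library labelled mutant 1, without which it was 0.28, and it was 0.40 without sibling 2. By label foxi1 was at 0.61 (SE 0.35), at 0.05 without mutant 1 and at 0.13 without sibling 2. The next genes by p were foxf1 and foxi2, which were lower. foxf1, a factor of visceral mesoderm, had 10.4, 26.1 and 24.6 in the first 3 columns and 16.8, 32.6 and 37.1 in the last 3 (-0.46, SE 0.22, limma adjusted p = 0.842). foxi2 had 1.63, 2.94 and 2.86 against 2.17, 5.11 and 4.93 (-0.48, SE 0.23, limma adjusted p = 0.842). Besides foxi1, foxi3b, foxj1a and foxa1 did not overlap and were higher in the first 3 columns, so that 4 of 47 forkhead genes did not overlap, beside 4.21% of all genes.

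In the rbm8a table at 21 hpf, 47 of 48 forkhead genes were tested (all but foxm1). By label, 20 were above 0, the median was -0.05 beside 0.00 over all genes, and 1 had an unadjusted p under 0.05, beside 2.17% of all 30411 genes (660 genes). That gene was foxf1, with an FPKM of 8.75, 34.8 and 12.7 in the libraries labelled mutant and 7.20, 5.78 and 6.54 in those labelled sibling (0.78, SE 0.25, limma adjusted p = 1.00). The groups do not overlap, and the highest value was that of mutant 2. The foxn2 pair followed. foxn2b had 1.70, 2.58 and 1.67 against 3.23, 1.88 and 4.55 (-0.60, SE 0.26, limma adjusted p = 1.00, and -0.38 without sibling 3), and foxn2a had 3.08, 19.4 and 13.4 against 3.93, 2.05 and 3.62 (0.97, SE 0.42, limma adjusted p = 1.00), with overlap in both. The value of foxn2a was 0.45 without mutant 3 and 1.84 without mutant 1. Its high values in mutant 2 and mutant 3 rest on 59 and 46 reads. The libraries labelled sibling held 16582013 reads or more, so depth and label are partly confounded here. foxi3b and foxa2 were at 0 in the library labelled mutant 3, and foxi3b also in mutant 2, the 2 shallowest libraries (3063244 and 1561184 reads). Of all forkhead genes, foxf1, foxj1a and foxj2 did not overlap by label, beside 4.57% of all genes. By label 3 of 12 epidermal markers (median log2 fold change -0.02) and 0 of 11 muscle markers (-0.41) were above 0, and by column place all 12 (0.26) and 2 of 11 (-0.27). Of neuronal markers 5 of 8 were above 0 by label (0.02) and 3 of 8 by column place (-0.04). Of erythroid markers 4 of 8 were above 0 by label (-0.06) and 1 of 8 by column place (-0.08). The part of all these markers in the values of forkhead genes was not tested.

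By column place at 21 hpf, 4 of 47 forkhead genes had an unadjusted p under 0.05 in the rbm8a table, beside 3.43% of all genes (1044 genes), and 0 were called. foxb1a, a gene of the neural tube, had an FPKM of 5.40, 8.13 and 9.64 in the first 3 columns and 10.1, 17.4 and 15.7 in the last 3, all of them higher (-0.95, SE 0.28, limma adjusted p = 0.970). foxq1b had 1.09, 1.64 and 18.4 against 0.727, 1.24 and 1.55, which overlap (0.52, SE 0.18, limma adjusted p = 0.970, and 0.26 without mutant 2). foxc1b had 3.36, 3.15 and 6.45 against 2.02, 1.39 and 2.70, with no overlap (0.62, SE 0.23, limma adjusted p = 0.970). foxi1 had 2.87, 3.19 and 1.88 in the first 3 columns and 1.84, 1.48 and 2.1 in the last 3, which overlap (0.45, SE 0.19, limma adjusted p = 0.970). The values of foxi1 in mutant 2 and mutant 3 rest on 9 and 8 reads. By label foxi1 was at -0.10 (SE 0.26). Besides foxb1a and foxc1b, foxe1 did not overlap by column place, so that 3 of 47 did not, beside 5.35% of all genes.

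The most abundant forkhead genes of both rbm8a tables were foxc1a, foxf1 and foxb1a. At 21 hpf foxc1a had 11.6, 33.4 and 10.28 in the libraries labelled mutant and 13.3, 7.65 and 15.1 in those labelled sibling. At 27 hpf foxc1a had 7.46, 8.89 and 6.97 in the libraries labelled mutant and 12.1, 4.39 and 5.30 in those labelled sibling. foxf1 had 3.43, 8.97 and 3.84 in the libraries labelled mutant at 27 hpf and 7.95, 6.06 and 7.31 in those labelled sibling, and foxb1a had 5.12, 4.91 and 8.41 against 14.8, 13.7 and 4.92. The labelled groups overlap in all of these.

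At 27 hpf, 45 forkhead genes were tested in the rbm8a table (foxb1b, foxb2 and foxm1 were below the filter). By label, 18 were above 0, the median was -0.08 beside 0.01 over all genes, and 3 higher and 3 lower had an unadjusted p under 0.05, which is 13.3% of those tested beside 14.8% of all 28845 genes (4283 genes). Without the library labelled sibling 2, 2 forkhead genes were called lower, in a fit that called 370 genes higher and 242 lower over all genes.

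The genes that differed most by label at 27 hpf included members in both directions. foxq2 was lower (0.467, 1.14 and 0.634 against 1.75, 1.23 and 1.39, log2 fold change -0.53, SE 0.19, limma adjusted p = 0.333). foxi1 had 4.61, 3.86 and 1.39 in the libraries labelled mutant and 1.93, 0.640 and 1.07 in those labelled sibling, which overlap (0.85, SE 0.32, limma adjusted p = 0.333). With each library left out, the value of foxi1 lay between 0.60 (without mutant 1) and 1.27 (without mutant 3). foxp4 (0.65, SE 0.25, limma adjusted p = 0.333) and foxa2 (0.46, SE 0.19, limma adjusted p = 0.333) were higher without overlap. In all, 4 forkhead genes were higher and 7 lower without overlap by label, which is 11 of 45, beside 20.4% of all genes. Markers of other tissues differed by label as well. All 12 epidermal markers were above 0 (median log2 fold change 0.75), as were all 11 muscle markers (0.71), with the epidermal markers summing to 3083, 2248 and 2066 in the libraries labelled mutant and 923, 2036 and 1086 in those labelled sibling. Of neuronal markers 6 of 8 were above 0 by label (median 0.14), and of erythroid markers 7 of 8 (0.11). The part of all these markers in the values of foxi1, foxp4 and foxa2 by label was not tested.

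By column place at 27 hpf, foxi1 had the largest difference and the smallest p of the forkhead genes tested. Its FPKM was 4.61, 1.93 and 3.86 in the first 3 columns and 0.640, 1.39 and 1.07 in the last 3, with no overlap. The first 3 were higher by 3.36-fold in the mean, with a log2 fold change of 1.00 (SE 0.23), and the limma adjusted p over all genes was 0.995. With each library left out in turn, this value stayed between 0.84 and 1.39. Since foxi1 and this division were both named when the genes were chosen, neither its rank nor this range is independent support. foxi1 had 8 and 15 reads in sibling 2 and mutant 3 and between 168 and 326 in the other 4 libraries. Here 7 of 12 epidermal markers were above 0, with a median of 0.08. So were 5 of 11 muscle (median -0.05), 3 of 8 neuronal (-0.07) and 2 of 8 erythroid markers (-0.55). foxc1a had 7.46, 12.1 and 8.89 in the first 3 columns and 4.39, 6.97 and 5.30 in the last 3, with no overlap (0.74, SE 0.27, limma adjusted p = 0.995). foxn2a had 2.11, 5.13 and 1.70 against 2.02, 2.49 and 2.03 (0.38, SE 0.19, limma adjusted p = 0.995, and -0.10 without sibling 1). foxj1a was the third gene without overlap, so that 3 of 45 forkhead genes, all higher, did not overlap, beside 6.64% of all genes. By unadjusted p, 2 of 45 were under 0.05, beside 3.95% of all genes (1139 genes).

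**Figure D5:**
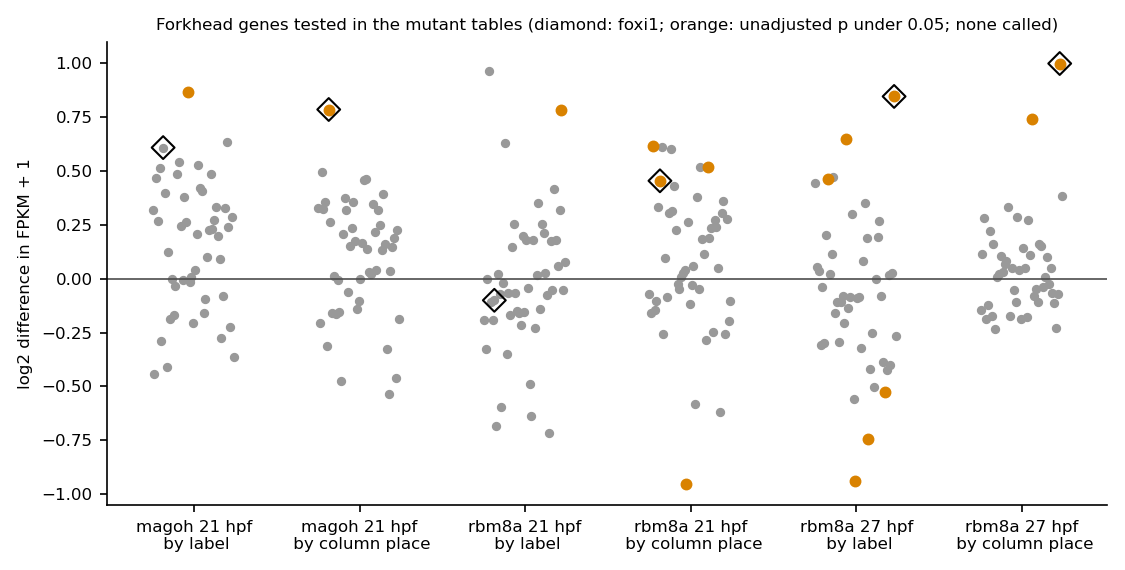
Log2 fold change of the tested forkhead genes (y axis, on the log2(FPKM + 1) scale, 1 point a gene) in the 6 comparisons of the mutant tables (x axis), by label (mutant minus sibling) and by column place (first 3 minus last 3), with foxi1 as a diamond and genes at an unadjusted p under 0.05 in orange. foxi1 lies at 0.61, -0.10 and 0.85 by label and at 0.79, 0.45 and 1.00 by column place, and no gene is called.

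Across the 4 tables, foxi1 was above 0 in each comparison but that of the rbm8a table at 21 hpf by label, beside 49.4% to 56.1% of all genes. Both foxi1 and the division by column place were named when the genes were chosen, with earlier results of these data known. The tally and the ranks of foxi1 among the forkhead genes are therefore no independent support. By label, the sign of foxi1 at 21 hpf changed in both mutant tables when some libraries were left out. foxi1 was called in the upf1 morphants alone, and the difference between the tables was not tested. The comparisons by label and by column place share all their libraries and are not independent of each other.

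The lists of genes that neighbour the forkhead genes in function held 0 called genes in the mutant tables, by limma, in all 6 comparisons. Over all genes 0% were called in each of these comparisons, so 0 in every list was certain and says nothing about the lists. The cell cycle list shows how far a direction depended on the division used. At 27 hpf, 27 of its 31 tested genes were above 0 by label (median 0.30) and 7 of 31 by column place (median -0.21), beside 50.7% and 51% of all genes. The motile cilia list had 12 of 41 genes above 0 by label (median -0.16) and 18 of 41 by column place (median -0.04). The otic list had 5 of 15 above 0 by label (median -0.12) and 4 of 15 by column place (median -0.11). The ionocyte list had 10 of 18 above 0 by label (median 0.09) and 9 of 18 by column place (median -0.02). At an unadjusted limma p under 0.05 by label, 6.21% of all genes were higher and 8.64% lower. In the same fit, 2 cell cycle genes were higher and 0 lower, and 2 motile cilia genes were higher and 8 lower. Of the otic genes 0 were higher and 2 lower, and of the ionocyte genes 2 were higher and 0 lower.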

How the data were processed

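The authors mapped trimmed reads to GRCz10 with TopHat2 (version 2.0.14), counted reads per gene and deposited FPKM scaled by DESeq2 size factors within each table. The mean over libraries of size-factor-scaled counts, a signal the authors deposited for each gene, was used only to recover the reads behind each FPKM. The authors' own fold changes, standard errors and p-values were not used, nor was the RIP-Seq table, whose transcripts are not named. The forkhead genes and all gene lists were chosen with earlier results of these data known. Genes that reached 0.5 FPKM in 3 libraries (2 in the upf1 table) were tested as log2(FPKM + 1) in limma (version 3.58.1, R 4.3.3), with 1 RUVs factor in the mutant tables and none in the upf1 table. Of the forkhead genes, foxi1, called genes, the 3 smallest p of each comparison and the 3 highest means of each table are given in every library; of each of 8 lists, up to 4 called genes or the 2 with the smallest p in the morphants. Some forkhead genes are counted with the others but their results are not reported here. Other genes named in passing, such as those without overlap, foxl2 and foxq1b, were chosen after their values were seen. Alternatives were 0 and 2 RUVs factors, a pseudocount of 0.1, other filters, quantile normalization, no fold threshold, a replicate block, each library left out and, chosen after seeing the data, pairs of libraries left out and libraries rescaled to the same sum. Depth per library limits low genes most. The tests were run on simulated data with noise drawn independently for each gene and with changes planted only in more abundant genes. The simulation therefore cannot show how the tests behave with libraries that stand apart, as in the mutant tables, or for low genes. The sources do not say whether the embryo pools came from separate clutches, so p-values measure the spread between these libraries. The paper states that at least 1 replicate of each mutant experiment came from a separate sequencing run, which added variability among replicates. The sources used here do not give the run of each library. Differences between runs therefore cannot be told apart from the other differences between libraries described above. The strand setting of the counting is not given either.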

Additional observations from a re-analysis of the deposited data

How the results depend on the processing

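In the morphants, foxi1 and foxd1 stayed called under all alternatives, and foxi1 lay between 0.89 and 1.04 with each library left out. A pseudocount of 0.1 called 2 forkhead genes higher and 5 lower (384 and 517 of all genes), adding foxj1b and foxl2 among others. Quantile normalization left 1 forkhead gene lower. Without the fold threshold the counts were 7 and 9 (1907 and 2175 of all genes), and with libraries rescaled to the same sum all genes called were 339 and 349. With each library left out, forkhead genes called lower ranged from 1 to 3, and all genes from 195 to 210 higher and 192 to 296 lower.

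In the mutant tables, counts above 0 appeared in few fits. By label at 27 hpf, 2 RUVs factors called 25 genes higher and 7 lower, and leave-one-out fits 0 to 370 higher and 0 to 242 lower, with 0 to 2 forkhead genes lower (2 without sibling 2). In the rbm8a table at 21 hpf by label, leave-one-out fits called 0 to 1 higher and 0 to 25 lower. In the magoh table by column place, 19 genes were lower without mutant 1 and sibling 2, and 10 with libraries rescaled. Signs changed for foxi1 by label: -0.054 in the magoh table without mutant 1 and sibling 2, and in the rbm8a table at 21 hpf 0.07 without sibling 1, 0.11 without mutant 3 and 0.34 without mutant 2 and mutant 3 (leave-one-out range -0.40 to 0.11). foxn2a by column place at 27 hpf ranged from -0.10 without sibling 1 to 0.48. Depth limits genes at under 20 reads, such as foxi1 in the 2 shallowest libraries at 21 hpf.

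Same-numbered libraries deviated from their group means with correlations of -0.78, -0.71 and 0.64 (magoh), -0.15, -0.47 and -0.17 (rbm8a, 21 hpf), -0.17, -0.32 and -0.45 (rbm8a, 27 hpf) and 0.18 (upf1), so the numbers were not taken to pair libraries. In the magoh table, mutant 1 and sibling 2 stand apart and carry different numbers, so the check cannot decide on pairing there. With 2 libraries a group, the upf1 table yields the same value for both numbers. With a replicate block, 1 forkhead gene was higher and 2 lower in the morphants (196 and 218 of all genes), 0 genes were called in the mutant tables by label, and the block changed no other call.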
